A study of Mus musculus with 610 samples.

Results

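The 4 assays described here are 3 that amplify a joined segment pair of a gamma delta T cell receptor gene (Vg2-Jg1, Vd4-Jd1 and Vd5-Jd1) and the recombinase gene Rag2. They were taken by name from a panel of 48 assays that was read in 610 single cells of the mouse thymus in 8 runs. An assay counted as detected in a cell when its threshold cycle (Ct) was below 24, and its level is 24 minus Ct, so that 1 unit is 1 PCR cycle and a higher level means more product.

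Every sort took live cells without surface T cell receptor delta (TCRd) or lineage markers. The Tcrd-/- DN1d population, 86 cells of 1 run, was CD44+, CD25-, CD24+ and cKit-. Its B6.129P2-Tcrd tm1Mom donors carry a targeted Tcrd gene and were 7 to 10 days old. The B6 DN2 population, 78 cells of 1 run, was CD44+, CD25+ and cKit+ and was taken at the same ages from C57BL/6J. The Rag1-/- cKit- population had 89, 52 and 82 cells in its 3 runs and was CD44+, CD25- and cKit-, with CD24 left ungated. Its donors were B6.129S7-Rag1 tm1Mom pups of postnatal days 0 to 2. The B6 DN1d population had 72, 70 and 81 cells in 3 runs, and was sorted by the Tcrd-/- DN1d gate from C57BL/6J at 7 to 10 days. Where the Tcrd gene is disrupted, no cell can show the delta chain, so the TCRd gate removes nothing there, while in B6 mice it removes cells that carry the receptor. The part of this gate in the comparison below was not tested. The labels name no animals behind a run, so p-values rest on variation from run to run, part of which may be technical. In tests of shares or mean levels between groups, only B6 DN1d and Rag1-/- cKit-, with 3 runs each, supply an assay's own variation. Where these tests are limited to Sox13-detected cells, Rag1-/- cKit- is left out and B6 DN1d alone supplies it. No Rag1-/- cKit- cell gave a junction product or Rag2, so for these assays those runs hold no variation of detection. The spread can thus be understated there, and p-values between groups too low. Every run holds 1 group, so that run and group cannot be told apart.

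As background, the genes of a T cell receptor are assembled in each cell by V(D)J recombination. The RAG1 and RAG2 proteins together form the enzyme that cuts beside V, D and J segments, and neither works without the other. The gamma chain joins a V to a J segment, and the delta chain has D segments between them. In the mouse thymus, DN1 and DN2 name early stages without CD4 and CD8, told apart by CD25. Rag2 transcription is known to begin as cells commit to the T lineage, and the gamma delta T cells known for producing interleukin 17 (Tgd17 cells) are known to depend on the HMG box factor Sox13. The labels give no primer sequences, no V segment nomenclature and no account of the part of Tcrd that the allele removes. Of the 4 names, 1 (Rag2, gene ID 19374, chromosome 2, 101624712 to 101632528 in GRCm38.p6) matched a RefSeq symbol. A junction product can arise from a transcript or from rearranged genomic DNA carried into the reaction, and which of them gave the signal was not tested.

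The number of assays detected per cell differed between groups. A cell had a median of 30 of the 44 assays that are no members detected in the Tcrd-/- DN1d run, 28 in the B6 DN2 run, 22 to 25 in the Rag1-/- cKit- runs and 19 to 20 in the B6 DN1d runs. The mean Gapdh level was 15.1, 15.2, 14.8 to 15.6 and 14.2 to 15.1 cycles in the same order of groups. Run 2 of B6 DN1d stood apart by its spread, with a lowest Gapdh level of 9.33 cycles and an SD of 1.37. Capture sites with more than 1 cell could not be recognised from the values or labels.

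The gamma junction was the most common product. Vg2-Jg1 was detected in 67 of 86 Tcrd-/- DN1d cells (77.9%, 95% interval 67.7% to 86.1%). None of the 78 B6 DN2 cells gave it, and the limit set by that count is 3.85%. In B6 DN1d it was detected in 34 of 72 cells of run 1 (47.2%), 21 of 70 cells of run 2 (30%) and 37 of 81 cells of run 3 (45.7%), a mean of 41% ± 9.53 (SD, n = 3 runs). The Tcrd-/- DN1d run was thus above all 3 B6 DN1d runs, in a comparison where 55.3% of 47 assays were higher and 0% lower by the test below. No Rag1-/- cKit- cell gave the product in any of 3 runs, where the limit is 1.35% over all of them. These mice lack an enzyme that the joining needs, so that this is the background of the junction assays.

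The delta junction showed a wider gap between the genotypes. Vd4-Jd1 was detected in 45 of 86 Tcrd-/- DN1d cells (52.3%, interval 41.3% to 63.2%) and in 1 of 78 B6 DN2 cells (1.28%). In B6 DN1d it was detected in 5 of 72 cells (6.94%), 7 of 70 cells (10%) and 4 of 81 cells (4.94%), a mean of 7.29% ± 2.55 (SD, n = 3 runs). The 1 Tcrd-/- DN1d run again lay above all 3 B6 DN1d runs, as did the lower end of its interval, which covers counting error only. A rise was common in the panel here too. No Rag1-/- cKit- cell gave Vd4-Jd1. Vd5-Jd1 was detected in 0 of all 610 cells, a count that puts the limit at 0.492%, and no positive control for this assay was used here.

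Rag2 had a different distribution from both junctions. It was detected in 45 of 78 B6 DN2 cells (57.7%, interval 46% to 68.8%). It was detected in 2 of 86 Tcrd-/- DN1d cells (2.33%), at levels of 7.02 and 8.09 cycles, and in 1 B6 DN1d cell, of run 2, at 6.52 cycles. No Rag1-/- cKit- cell gave it. The order of shares was therefore DN2 first, with the other 3 groups at or below 2.33%. Among DN2 cells the product spanned a wide range, with a median level of 7.40 cycles (2.72 to 11.5) in detected cells.

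**Figure D1:**
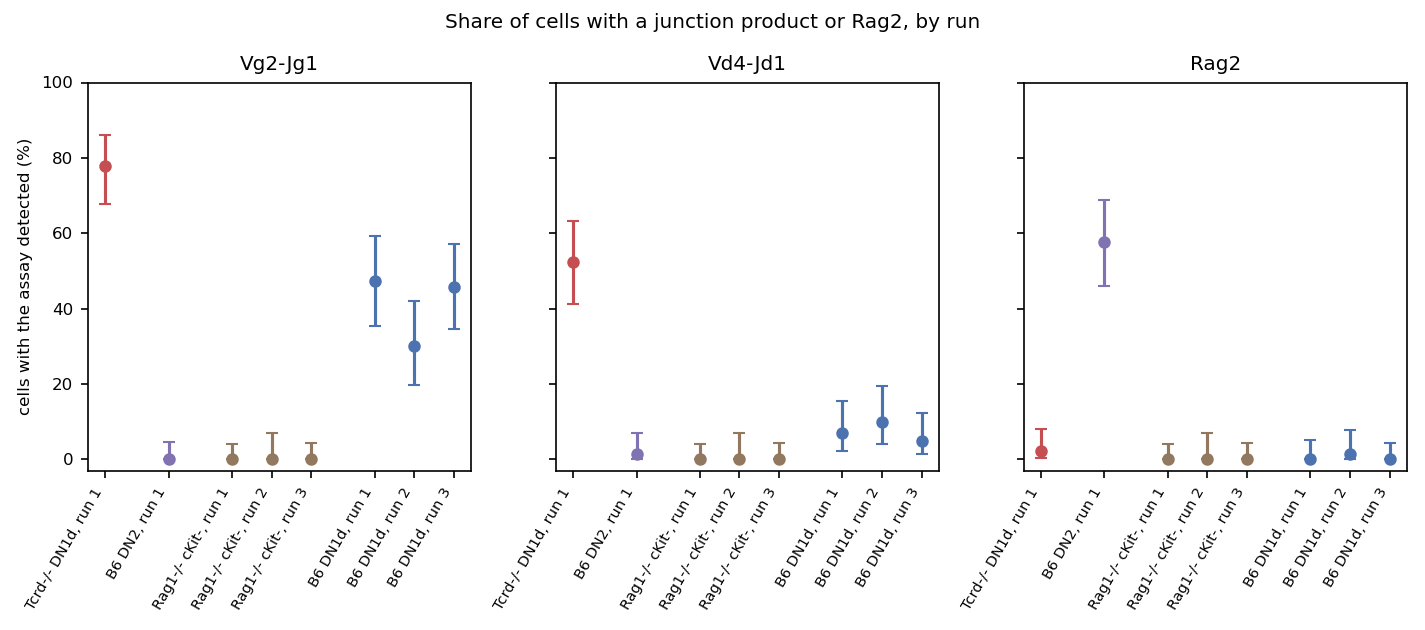
Share of cells (%) with Vg2-Jg1, Vd4-Jd1 or Rag2 detected, 1 point per run, with exact 95% intervals that cover counting error only. Both junctions are highest in the Tcrd-/- DN1d run (77.9% and 52.3%), and Rag2 is high in the B6 DN2 run (57.7%).

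Junctions rose in Tcrd-/- DN1d cells against B6 DN1d cells in limma's test of shares. On the logit scale Vg2-Jg1 was higher by 1.61 (SE 0.50, adjusted p = 0.00866) and Vd4-Jd1 by 2.59 (SE 0.49, adjusted p = 0.000255). Of the 47 assays tested, 55.3% were higher and 0% lower in this comparison, so that a rise was the common outcome in the panel. Rag2 differed by 1.11 (SE 0.54, adjusted p = 0.0898), which did not pass. Without B6 DN1d run 2, which holds the only B6 DN1d cell with Rag2, the difference was 1.51 and passed (adjusted p = 0.0283, against 0.0283 to 0.777 over its alternatives). There, 2 Tcrd-/- DN1d cells stand against B6 DN1d runs with 0 cells, so that the value depends on the 0.5 added to each count. With 1 added instead, in all runs, the difference was 0.74 and did not pass. Both populations passed the same gate but differed in Sox13, which was detected in 96.5% of Tcrd-/- DN1d cells and in 50%, 44.3% and 32.1% of the cells of the B6 DN1d runs. Within Sox13-detected cells Vg2-Jg1 differed by 0.45 (adjusted p = 0.624) and Vd4-Jd1 by 1.84 (SE 0.40, adjusted p = 0.0553), so that neither passed there. That fit had 4.12 degrees of freedom against 20.0 in all cells, so that its p-values are not directly comparable with those above. The adjusted p over the alternatives ran between 0.00258 and 0.624 for Vg2-Jg1 and between 1.3e-05 and 0.0553 for Vd4-Jd1. For Vg2-Jg1 the difference also did not pass in cells with 20 to 35 assays detected (0.63 on the logit scale, adjusted p = 0.463).

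B6 DN2 cells fell below B6 DN1d cells for both junctions and rose above them for Rag2. The logit difference was -4.68 for Vg2-Jg1 (adjusted p = 5.0e-08), -1.45 for Vd4-Jd1 (adjusted p = 0.0122) and 4.94 for Rag2 (adjusted p = 6.88e-08, limma). Since few or no cells were detected on 1 side, the size of these values depends on the 0.5 added to each count. With 1 added they were -4.00, -1.25 and 4.39, and all passed. The background in this comparison was 44.7% of 47 assays higher and 21.3% lower. Sox13 was detected in 69 of 78 DN2 cells (88.5%), and within Sox13-detected cells all 3 differences kept their direction and passed, at -5.89, -2.10 and 4.13. Without B6 DN1d run 2 the Vd4-Jd1 difference was -1.27 and no longer passed. The single DN2 cell with Vd4-Jd1, at a level of 7.79 cycles, had both Rag2 and Sox13 detected.

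Between Rag1-/- cKit- and B6 DN1d cells the junctions are not read as a comparison, since joining needs the enzyme that these mice lack. Rag2 itself, which is not the targeted gene, was found in 0 Rag1-/- cKit- cells against 1 B6 DN1d cell (difference -0.35, adjusted p = 0.438), where 34% of 47 assays were higher and 25.5% lower. Age and the CD24 gate differ between these groups too, and their part cannot be told apart from that of the genotype.

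The level in the cells with a product also varied. Vd4-Jd1 had a median level of 14.3 cycles (6.84 to 15.7) in the 45 detected Tcrd-/- DN1d cells. In the detected B6 DN1d cells the medians were 10.4 (4.38 to 11.8), 8.92 (4.12 to 12.0) and 11.6 cycles (7.13 to 12.9). Thus 36 of the 45 Tcrd-/- cells lay above the highest B6 DN1d level. In 3 of these 45 cells the product came up before Gapdh in the same cell, and in none of the B6 DN1d cells did it.

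Vg2-Jg1 levels overlapped between the genotypes. The median was 9.07 cycles (1.48 to 11.1) in detected Tcrd-/- DN1d cells, and 6.76 (2.64 to 11.7), 3.82 (0.0383 to 6.42) and 8.46 cycles (2.83 to 11.7) in those of the B6 DN1d runs. No Tcrd-/- cell exceeded the highest B6 DN1d level. In run 2 of B6 DN1d, 13 of 21 products came at Ct 20 or later, against 2 of 34 in run 1, 2 of 37 in run 3 and 4 of 67 in the Tcrd-/- run. Run 2 fell short of the mean of runs 1 and 3 by 4.40 cycles for Vg2-Jg1, the lowest of 44 assays, where the median assay differed by -1.21 cycles.

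Over the same 44 assays, the mean level in detected cells of Tcrd-/- DN1d minus B6 DN1d was 3.57 cycles for Vd4-Jd1 (SE 1.31, adjusted p = 0.164) and 2.48 cycles for Vg2-Jg1 (adjusted p = 0.331), the second and the eighth highest of 44. Neither passed limma's test, in which all assays took the same pooled SE. The median over all assays was 1.41 cycles, 40 of 44 were higher, and 0 passed while 7 had an unadjusted p below 0.05. Without B6 DN1d run 3 the differences were 4.10 and 3.58 cycles and both passed (adjusted p = 0.0268), against a range of 0.0268 to 0.698 over the alternatives for each.

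**Figure D2:**
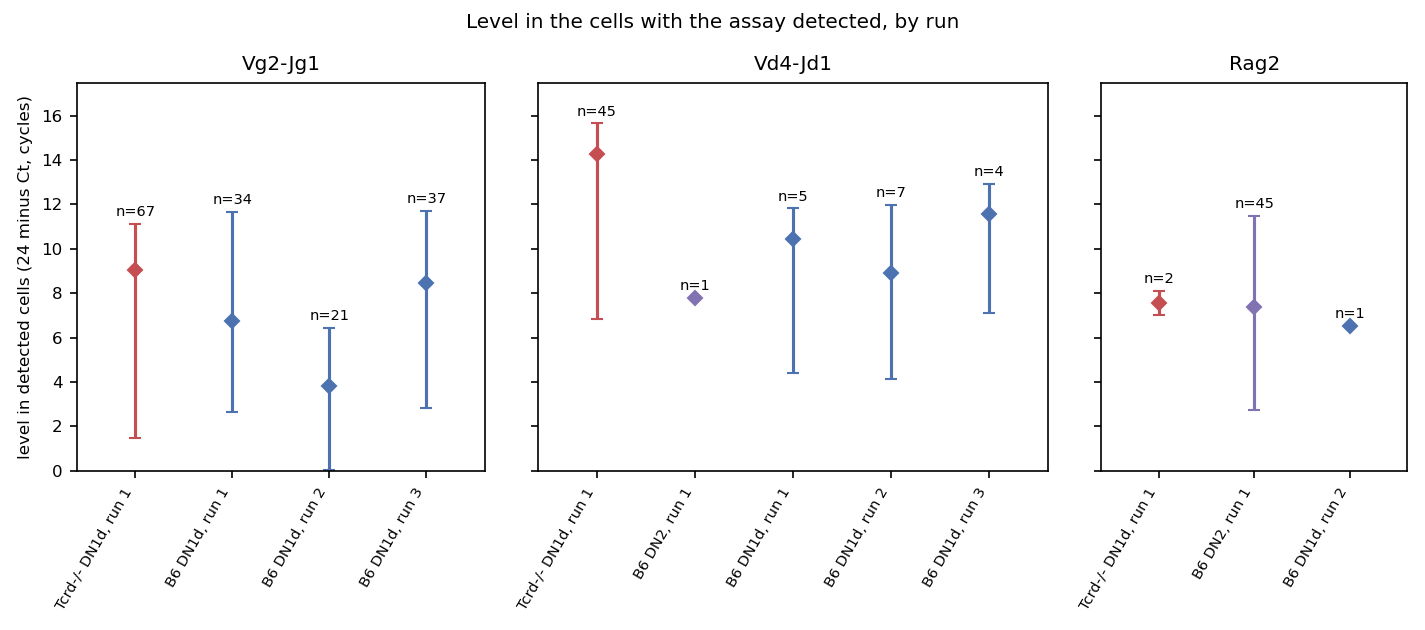
Level (24 minus Ct, in PCR cycles) in the cells with the assay detected, with the median as a diamond, the lowest and highest cell as bars and the number of detected cells above. Runs with no detected cell are left out, and Vd4-Jd1 in the Tcrd-/- DN1d run has the highest median, 14.3 cycles.

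Next, the overlap of both junctions in single cells was counted. In Tcrd-/- DN1d, 40 cells had both products, 27 had Vg2-Jg1 alone, 5 had Vd4-Jd1 alone and 14 had neither. Both were thus found in 59.7% of the Vg2-Jg1 cells and 88.9% of the Vd4-Jd1 cells. In B6 DN1d, cells with both numbered 3, 2 and 4 over runs 1 to 3, which is 8.82%, 9.52% and 10.8% of the Vg2-Jg1 cells and 60%, 28.6% and 100% of the Vd4-Jd1 cells. Vg2-Jg1 alone was found in 31, 19 and 33 cells and Vd4-Jd1 alone in 2, 5 and 0 cells.

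The natural log odds ratio of finding both was 1.36 in the Tcrd-/- run, with no test. In B6 DN1d it was 0.48, 0.04 and 2.48 by run, a mean of 1.00 (SE 0.54, adjusted p = 0.123 over 40 assays), and in Sox13-detected cells -0.35 (adjusted p = 0.731). An association of the junctions in B6 DN1d did not pass the test, and the values differed widely between runs. Rag2 shared few cells with either junction. Both Tcrd-/- cells with Rag2 had Vg2-Jg1 and neither had Vd4-Jd1, while the B6 DN1d cell with Rag2 had no junction.

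At least 1 junction was detected in 72 of 86 Tcrd-/- DN1d cells (83.7%), in 1 of 78 B6 DN2 cells and in 0 Rag1-/- cKit- cells. In B6 DN1d it was detected in 36 of 72, 26 of 70 and 37 of 81 cells, 50%, 37.1% and 45.7%.

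Junctions were found mostly in cells with Sox13. In B6 DN1d, 77.8%, 74.2% and 80.8% of Sox13-detected cells had a junction in runs 1 to 3 (77.6% ± 3.29, SD, n = 3 runs). Of cells without Sox13, 22.2%, 7.69% and 29.1% had one (19.7% ± 10.9). The lowest share with Sox13 lay above the highest without it. Yet 27 of the 99 B6 DN1d cells with a junction had no Sox13 detected, 16 of them with Vg2-Jg1 in run 3. The Tcrd-/- run had a junction in 71 of 83 Sox13-detected cells (85.5%) and in 1 of 3 others.

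Of 69 Sox13-detected DN2 cells 1 had a junction, and of the 9 other DN2 cells 0 had one, too few to relate the junction to Sox13 there. Many DN2 cells thus had Sox13 without a junction. For each product alone, Sox13-detected B6 DN1d cells had Vg2-Jg1 in 75%, 61.3% and 80.8% and Vd4-Jd1 in 11.1%, 16.1% and 15.4% of cells by run. Sox13-detected Tcrd-/- cells had them in 80.7% and 53%. The Vg2-Jg1 share in Sox13-detected Tcrd-/- cells therefore lay within the B6 DN1d range, and the Vd4-Jd1 share above it. In DN2, Rag2 was detected in 41 of 69 cells with Sox13 (59.4%) and 4 of 9 without (44.4%).

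**Figure D3:**
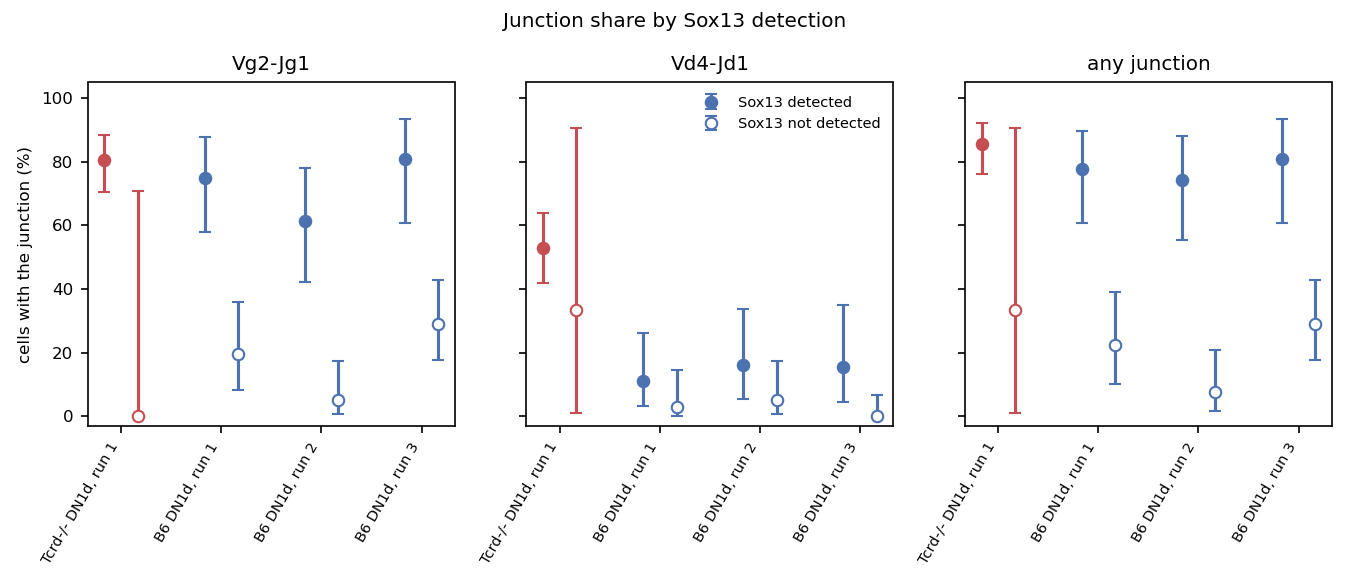
Share of cells (%) with Vg2-Jg1, Vd4-Jd1 or any junction among cells with Sox13 detected (filled) and not detected (open), in the Tcrd-/- DN1d run and the 3 B6 DN1d runs, with exact 95% intervals. The Tcrd-/- run has only 3 cells without Sox13, and in B6 DN1d the filled points for any junction lie between 74.2% and 80.8%.

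Which other assays differ in a cell with a junction was asked within B6 DN1d, where 36, 26 and 37 cells with a junction were set against 36, 44 and 44 cells without one in the same run. Of 39 assays tested, 41% (16) were detected more often with a junction, 12.8% (5) less often, and 18 did not pass (limma on log odds ratios). Cells with a junction also had more assays detected, with medians of 23, 24 and 21 other assays against 16 in each run, while the mean Gapdh level was 15.1, 14.3 and 14.7 against 15.1, 14.1 and 14.7 cycles. Compared within 2 strata of the number of other assays, 12 were called more often and 3 less often, and Tcf12, Lef1, Sox4, Maf, Cdh1 and Bhlhe40 lost their calls.

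Genes of the Tgd17 programme, a list chosen with earlier results of these data known, were 9 of the 16 assays in the higher group. Of 10 tested, 9 were above threshold, with a median log odds ratio of 2.31 against 0.67 over all 39 assays. Within strata of the number of other assays, 6 of the 10 passed, among 12 higher calls. Sox13 had a log odds ratio of 2.67 (SE 0.48, adjusted p = 0.000906), with 77.8%, 88.5% and 56.8% of cells with a junction against 22.2%, 18.2% and 11.4% of cells without. Blk, which encodes a B lymphoid kinase of the Src family, was found in 72.2%, 80.8% and 45.9% of cells with a junction and in 13.9%, 18.2% and 4.55% of cells without (2.72). Cd163l1, a scavenger receptor, followed at 2.72, the ETS factor Etv5 at 2.41, the interleukin 17 receptor subunit gene Il17re at 2.21 and the E protein gene Tcf12 at 1.64. Sox4 was at 1.47 and Maf, a factor that Tgd17 cells need, at 1.29, but within strata of the number of other assays they stood at 0.69 and 0.12 and did not pass. Sox4 also lost its call without any 1 of the 3 runs (0.78 without run 3), and Maf without run 1 (0.97) or run 2. The same 2 fits also lost the call of Tcf12. Il7r, the interleukin 7 receptor chain, was the member of this list that did not pass, at -0.83 (adjusted p = 0.205).

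Of 7 tested T lineage genes, 2 passed. Tcf7, which encodes the Notch target TCF-1, was detected in 88.9%, 88.5% and 94.6% of cells with a junction and in 36.1%, 40.9% and 31.8% of cells without (2.73, SE 0.48, adjusted p = 0.000906). Lef1, its HMG box relative, reached 1.61. Bcl11b, the zinc finger factor of T lineage commitment, was detected in 91.7%, 100% and 43.2% against 88.9%, 77.3% and 31.8% of cells and did not pass (1.18, adjusted p = 0.0984, with 0.00463 to 0.633 over its alternatives). It passed with Ct below 20, by mean level, with Vg2-Jg1 as the only junction and without run 3 (1.53), and stood at 0.38 without run 2. The genes of receptor signalling split, since Blk passed while Syk (0.62) and the response gene Egr2 (0.23) did not. Of 4 cell cycle genes none passed, and 1 of 5 recombination and E protein genes did, Tcf12.

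Outside these lists, higher shares were found for Myb (2.82), a factor of blood progenitors, Gzma (2.65), which encodes granzyme A, Tox (2.65), an HMG box factor of lymphoid development, Ccr9 (2.43), a chemokine receptor of thymic homing, and Smo (1.78), the transducer of Hedgehog signals. Smo stood at 1.68 without run 1 and lost its call there, and in run 3 it was at 37.8% with against 25% without a junction. Tox was 1 of 4 innate lymphoid genes to pass, and Myb 1 of 2 genes of mast cells and early progenitors. The myeloid and dendritic list went the other way, with all 3 tested genes less often detected in cells with a junction. Spi1, which encodes PU.1, was at 0% in cells with a junction in all 3 runs, against 5.56%, 9.09% and 22.7% of cells without (-2.19, adjusted p = 0.00305). With 0% on that side, the size of this log odds ratio depends on the value added to each count. By mean level Spi1 did not pass limma's test (-1.09 cycles, adjusted p = 0.127). Csf2rb2, a cytokine receptor chain, was at 2.78%, 3.85% and 0% against 19.4%, 18.2% and 38.6% (-2.35), and Gp49a, a receptor of myeloid cells, was at -2.24. Cdh1, which encodes E-cadherin, was at -1.94 and Bhlhe40, a repressor, at -1.63. Cdh1 stood at -0.93 without run 3 and lost its call there, at Ct below 20, by mean level and within strata (-1.11). Bhlhe40 lost it within strata and without run 1 (-1.26).

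All log odds ratios named as passing had the same sign in all 3 runs. The tests, however, rest on few runs. Without run 2 none of the 39 assays passed in either direction, although log odds ratios then stood at 2.96 for Tcf7, 2.67 for Blk, 2.65 for Tox and -2.83 for Csf2rb2, and the lowest of the 16 assays called higher in all runs was Smo, at 1.28. With each assay's own spread in place of the shared one, which leaves the log odds ratios as they are, 1 passed.

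**Figure D4:**
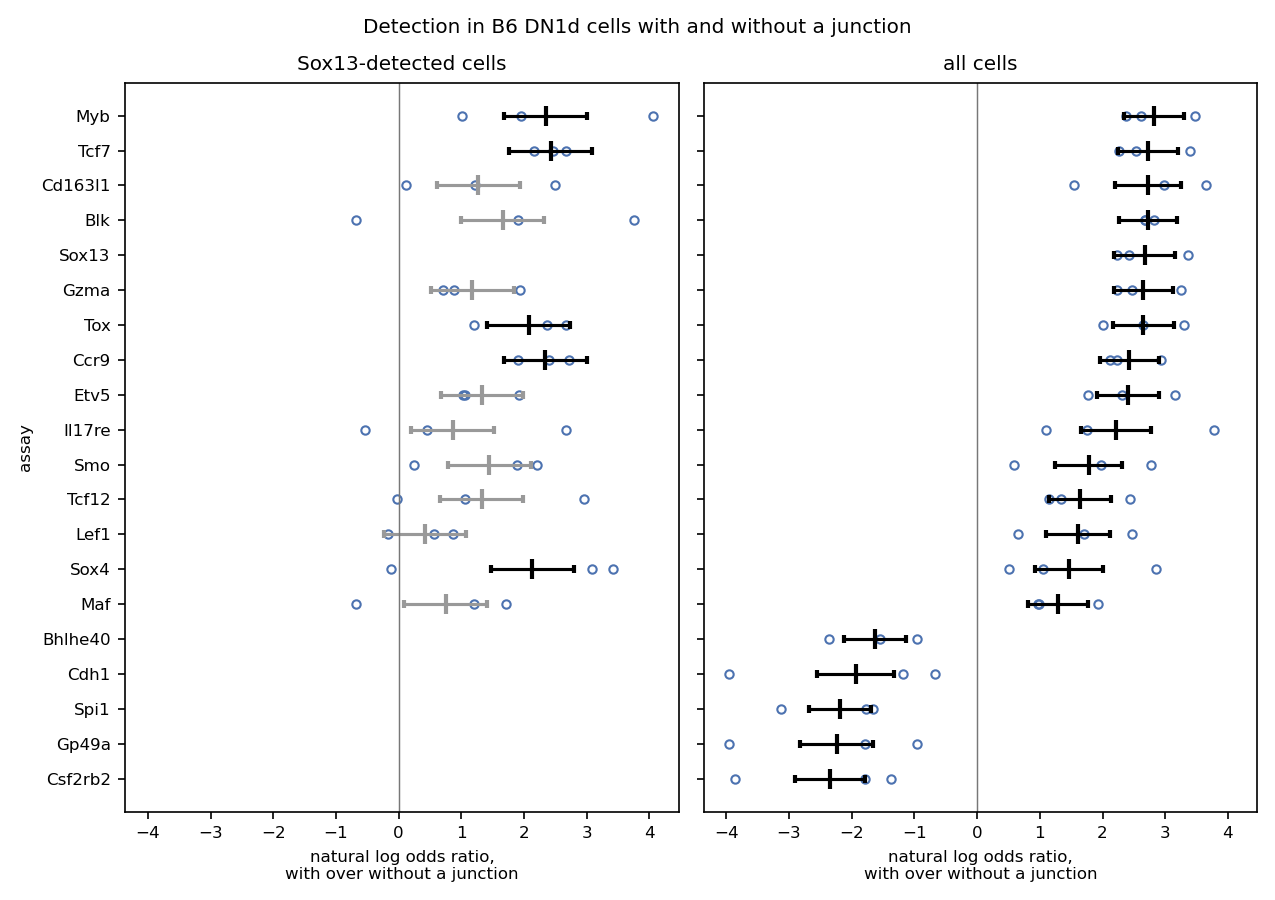
Natural log odds ratio of detection in B6 DN1d cells with over without a junction, among Sox13-detected cells (left) and all cells (right), for named assays past the threshold in all cells. Circles are runs, ticks with bars are the mean and its SE, and grey bars did not pass, so that in all cells 15 assays are drawn above 0 and 5 below.

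Since Sox13 and the junctions go together, the same split was made among Sox13-detected B6 DN1d cells, with 28, 23 and 21 cells with a junction against 8, 8 and 5 without. Of 32 assays tested, 18.8% (6) were detected more often with a junction and 0% less often, and 11 had an unadjusted p below 0.05. The spread was pooled over these assays (64 degrees of freedom), so that their SEs were nearly the same. Tcf7 was detected in 96.4%, 91.3% and 100% of cells with a junction, against 62.5%, 50% and 80% of cells without (2.42, SE 0.66, adjusted p = 0.00761). Ccr9 was detected in 92.9%, 87% and 90.5% against 62.5%, 25% and 40% (2.34, adjusted p = 0.00761). Both were higher with a junction in each run.

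Of the other named calls, Myb and Sox4 were less even. Myb (2.34, adjusted p = 0.00761) was at 100% on both sides in run 2 and at 85.7% against 0% in run 3. Sox4 (2.13) and Tox (2.07, adjusted p = 0.0157 for both) passed, but Sox4 was at 95.7% with and 100% without a junction in run 2. Tox was at 92.9%, 91.3% and 100% with a junction against 50%, 75% and 80% without, higher in each run. Blk did not pass (1.66, adjusted p = 0.0666), nor did Syk (1.02), Bcl11b (0.89), Maf (0.75), Egr2 (0.55) or Il7r (-0.21). Of these, Blk did pass limma's test within 2 strata of the number of other assays (1.47, adjusted p = 0.0293). Its shares were uneven, at 92.9%, 91.3% and 81% with a junction against 62.5%, 100% and 0% without. No myeloid gene reached the share of cells needed for a test.

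With so few cells without a junction, the value added to each count matters. An assay found in every cell on both sides takes a log odds ratio of 1.21, 1.02 and 1.36 in these 3 runs, and the median over 32 assays was 0.91. With the added value scaled to the number of cells on each side, so that such an assay takes 0, none of the 32 passed, while in all cells 16 higher and 5 lower calls were found as before. The log odds ratios then stood at 2.28 for Ccr9, 2.20 for Myb, 2.13 for Tcf7, 1.79 for Tox and 1.53 for Sox4. Their SEs were no longer alike, at 0.46, 1.07, 0.42, 0.49 and 0.93 in this order. For Tcf7 and Ccr9 the SE was smaller than in the reported fit (0.66), yet the adjusted p of limma's test rose to 0.104. The pooling of the spread between assays thus changed along with the added value, and their parts in the lost calls were not tested. None passed without run 1, without run 3 or with each assay's own spread. The Sox13-detected calls are thus not stable to these settings.

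The Tcrd-/- DN1d run allows the same split without a test, between 72 cells with and 14 without a junction. Of 44 assays, 18 had a share at least 20 percentage points higher with a junction and 6 at least 20 points lower. Smo was detected in 91.7% against 42.9% of cells, Blk in 97.2% against 50%, Ccr9 in 94.4% against 50%, and both Myb and Tcf7 in 98.6% against 57.1%. Notch1, the receptor that starts T lineage development, was at 84.7% against 42.9%, and Cdk6, a cell cycle kinase, at 97.2% against 64.3%. Gzma, Tox, Il17re, Etv5, Cd163l1, Tcf12, Lef1, Mcm2, Maf and Tcf3 E47 were among the 18 as well.

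The 6 lower assays were Cdh1 (2.78% against 35.7%), Gp49a (4.17% against 35.7%), Csf2rb2 (2.78% against 28.6%), Nfil3 (13.9% against 35.7%), Bhlhe40 (6.94% against 28.6%) and Spi1 (0% against 21.4%). Of the 21 assays called in B6 DN1d, 20 differed the same way in this run, and Sox4 was detected in 100% of cells on both sides. Over all 44 assays, 30 were higher with a junction, by a median of 11.1 points, so that a higher share was common. Cells with a junction had a median of 31 other assays detected here, against 25 in cells without. Splitting the same run by Vd4-Jd1 (45 against 41 cells) left 1 assay with a difference of 20 points, Vg2-Jg1 itself, at 88.9% against 65.9%.

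In B6 DN2, 45 cells with Rag2 were set against 33 without, again with no test. Of 43 assays, Nfil3, a basic leucine zipper factor, was the only one with a difference of 20 points, at 35.6% of cells with Rag2 and 9.09% without. The largest difference the other way was that of Egr2, at 13.3% with and 30.3% without Rag2. Gzma was at 40% against 24.2%, Id2 at 84.4% against 69.7% and Zbtb16, which encodes PLZF, at 48.9% against 60.6%. Bcl11b was detected in 93.3% against 78.8%, Il7r in 97.8% against 87.9% and the E12 form of Tcf3 in 100% against 84.8% of cells, and Runx1, Ets1 and the E47 form of Tcf3 in all cells of both sets. The median number of other assays was 28 with and 27 without Rag2.

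Across the 8 runs, the assay with shares most like those of Vg2-Jg1 was Etv5, with a mean absolute difference of 7.86 percentage points, followed by Blk (12.9) and Ccr9 (15.4). Etv5 was detected in 95.3% of Tcrd-/- DN1d cells, 7.69% of DN2 cells, at most 4.49% of Rag1-/- cKit- cells in a run and 32.9% to 34.7% of B6 DN1d cells. For Rag2 the nearest was Spi1 (5.75 points), which was detected in 80.8% of DN2 cells, followed by Csf1r (7.36). Csf1r was at 2.56% in DN2, where Rag2 was at 57.7%, and at 0% in every other run, so that its likeness is one of low shares. For Vd4-Jd1 the nearest were Csf2rb2 (8.87), Gp49a (9.22) and Csf1r (9.44), all of them rare, so that this likeness is one of low shares. In the Tcrd-/- run, where Vd4-Jd1 was common, Csf2rb2 was at 6.98% and Csf1r at 0%.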

How the data were processed

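Per the labels' protocols, sorted single thymus cells went onto a Fluidigm C1 for lysis and reverse transcription. The product went through 18 cycles of preamplification and 30 cycles of quantitative PCR, per the same protocols. No step that removes genomic DNA is listed there. The deposited table holds 1 score per assay and cell, a threshold cycle (Ct) that the authors left unnormalised. The sources used here do not say how Ct was called.

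From these values, level was computed as 24 minus Ct, and a level above 0 counted as detected. The run, read from each cell's title, was the replicate. limma 3.58.1 in R 4.3.3 fitted the empirical logit of each assay's share of cells per run (0.5 added to each side). All 8 runs entered 1 fit with a mean per group, and groups of 1 run were assumed to vary like the others. The fit of Sox13-detected cells left out the Rag1-/- cKit- runs and had 4.12 degrees of freedom, against 20.0 in the fit of all cells. For the junctions and Rag2, the Rag1-/- cKit- runs entered this spread with 0 detected cells each. For cells with against without a junction, limma tested the mean of 3 natural log odds ratios against 0, over assays detected in 5% to 95% of the cells. Each assay's spread was drawn toward that of all assays. In the Sox13-detected split (64 degrees of freedom) and for levels in detected cells (88), it was pooled over all assays. An assay's own variation between runs then had little or no part in its p-value. Two-sided p-values received Benjamini-Hochberg adjustment across every assay of a fit, with a threshold of 0.05. Intervals of shares are exact (Clopper-Pearson) at 95%, and for a count of 0 the limit given is 3 cells of the number examined. Neither covers more than counting error. Python 3.11.15 was used for tables and figures.

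The rule for named assays took the 4 members, every assay past the threshold in a junction split, and Sox13, Blk, Maf, Bcl11b, Tcf7, Egr2, Syk and Il7r. In groups of 1 run it took assays whose shares differ by 20 percentage points or more. The split of DN2 cells by Rag2 also names assays below that difference, which were picked outside the rule. Members and lists were chosen with earlier results of these data known. Counts include 1 more gene that met this rule and is not reported here. The tests were tried first on simulated data. Other Ct limits, levels, cell filters, added values and left-out runs were tried as alternatives.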

Additional observations from a re-analysis of the deposited data

How the results depend on the processing

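The rise of both junctions in Tcrd-/- DN1d against B6 DN1d kept its direction under every alternative tried. Some of these cannot change the estimate and so say nothing on direction. They are leaving out a Rag1-/- cKit- run, each assay's own spread, and the limit to assays detected in 5% to 95% of cells. The rise did not pass for Vg2-Jg1 in cells with 20 to 35 assays detected (0.629 on the logit scale) and in Sox13-detected cells (0.452), nor for Vd4-Jd1 in Sox13-detected cells (1.84). For Rag2 the same difference was -0.352 cycles with mean level relative to Gapdh, and ran between 0.886 and 1.51 when a run was left out. In DN2 against B6 DN1d, Vg2-Jg1 did not pass by mean level (-2.66 cycles) and Vd4-Jd1 did not by level relative to Gapdh (-1.11 cycles). Leaving out a run moved Vd4-Jd1 between -1.62 and -1.27. In Rag1-/- cKit- against B6 DN1d, where the junctions are not read as a comparison, Vd4-Jd1 was -1.24 cycles relative to Gapdh, and Rag2 ran between -0.576 and 0.0528 without a run. The cause of these changes was not tested.

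Calls in the junction splits depended on the runs. In all B6 DN1d cells, 0 to 17 assays were called more often and 0 to 6 less often when a run was left out, with 0 and 0 without run 2. Each assay's own spread gave 1 and 0, and 2 strata of the number of other assays gave 3 less often. In Sox13-detected cells the calls numbered 0 to 9 more often and 0 to 1 less often without a run, 3 by mean level, 0 with each assay's own spread and 0 with the added value scaled to the number of cells, an alternative chosen after seeing the data, as was the restriction to Sox13-detected cells. Leaving out a run moved Egr2 between -0.130 and 0.596 in all cells and between -0.0428 and 0.970 in Sox13-detected cells, and Il7r between -0.541 and 0.0972 in Sox13-detected cells. Il7r was 0.111 there with Vg2-Jg1 as the only junction. Neither gene passed in the reported fits, but Il7r did in all cells by mean level and without run 3.

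No paired analysis was possible because each run holds cells of 1 group and run numbers were given in accession order. The number of runs, not of cells, limits these tests. Shares in groups of 1 run carry counting error only.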
